A study of Mus musculus with 16 samples.

Results

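The genes described here are 9 clock output and modulator genes: the PAR bZIP transcription factors Dbp, Tef and Hlf, their relative Nfil3, the repressors Ciart, Bhlhe40 and Bhlhe41, the nuclear receptor Rora and the kinase gene Wee1. They were taken by symbol from a table of 54392 genes, and all 9 were found. RNA-seq had been done on colonocytes, the absorptive epithelial cells of the colon, from C57BL/6 mice given 1 of 2 diets for 3 weeks: corn oil with cellulose (9 libraries) or fish oil with pectin (7 libraries). The labels give no genetic change, age or sex for either group, number the libraries as biological replicates without saying whether each came from its own mouse, and name colon RNA in the extraction step. The p-values therefore measure the spread between these libraries, which may in part be technical. The sources used here do not give the hour at which tissue was taken.

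In the mammalian clock, the activators ARNTL (BMAL1) and CLOCK bind E-boxes and drive the Per, Cry and Nr1d genes, whose products feed back on them. The same E-boxes drive output genes. DBP, TEF and HLF activate genes through D-boxes, and NFIL3 (E4BP4) represses through the same element. CIART (CHRONO), BHLHE40 (DEC1) and BHLHE41 (DEC2) repress E-box transcription, and RORA activates Arntl and Nfil3 through elements that the NR1D receptors occupy as repressors. WEE1 restrains entry into mitosis by phosphorylating CDK1, and its gene is an E-box target in liver. In the gut these factors follow light, feeding and the microbiota, and the gut epithelium has a clock of its own.

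The start regions of the genes show how far these elements can be read from the sequence. RefSeq promoter windows on GRCm38.p6, from 250 bases before to 50 after a start site, were found for 7 of the 9 genes (8 windows, since Tef had 2). They were searched on both strands for the E-box CACGTG, the related CACGTT, the D-box forms TTATGTAA, TTATGCAA and TTACGTAA, and the ROR element cores TAGGTCA and TGGGTCA; overlapping motifs were not merged. Ciart, Tef and Bhlhe41 held CACGTG, which was in 7.15% of 32851 windows. Ciart held it 3 times, and 0.0883% of windows held it at least that often. Nfil3 held 1 TAGGTCA (2.61% of windows), on the opposite strand. None of these letters was in the windows of Dbp, Hlf or Rora, which says nothing of other regions. The stretches with a match are shown 5′ to 3′ on the gene's strand, with the match in capitals.
Ciart, chr3:95882259-95882358, minus strand, 130 to 31 bases before the start, within an intron of C920021L13Rik: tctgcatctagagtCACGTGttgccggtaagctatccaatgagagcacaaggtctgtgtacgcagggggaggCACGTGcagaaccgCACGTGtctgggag
Tef, first start, chr15:81802534-81802563, plus strand, within an annotated exon of Tef and of Gm17597: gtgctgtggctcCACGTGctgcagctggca
Tef, second start, chr15:81811264-81811293, plus strand, within an intron of Tef: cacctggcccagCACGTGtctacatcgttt
Bhlhe41, chr6:145865561-145865620, minus strand, in no annotated gene: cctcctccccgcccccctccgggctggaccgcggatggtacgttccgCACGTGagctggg
Nfil3, chr13:52981040-52981063, minus strand, within an annotated exon of Nfil3: ggcgctcggaacTGACCTActaac

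Library totals ran from 13996288 to 19512755 counts. The prefix GC was in the names of 10 libraries, 5 of each diet, and absent from those of 4 corn oil/cellulose and 2 fish oil/pectin libraries. The sources used here do not explain this name form, so it was a term of the model and members' values are also given within each form. The number in the library name starts with 7 in 4 corn oil/cellulose and all 7 fish oil/pectin libraries and with 8 in the other 5 corn oil/cellulose libraries, so diet and number series are in part confounded and cannot be told apart for those 5. In the libraries starting with 7 alone, Ciart passed (-1.28, edgeR adjusted p = 0.0281), while Tef (-0.88, edgeR adjusted p = 0.1099), Rora (-0.77, adjusted p = 0.0615) and Bhlhe40 (-0.24, adjusted p = 0.0944) did not. The 12 colonocyte markers summed to 16854 to 28996 CPM (counts scaled to library size) per library. Markers of goblet cells summed to 3879 to 11148 CPM and those of stem cells to 579 to 806 CPM, so other epithelial cells were present as well, and smooth muscle markers to at most 0.616 CPM, with Cnn1 at 0. Over all genes tested 20.1% were lower with fish oil/pectin, whereas of 12 T and NK cell markers tested 10 were lower and 0 higher. Their sum differed between diets in GC-named libraries (61.9 to 123 CPM with corn oil/cellulose, 24.1 to 52.8 CPM with fish oil/pectin), whereas in the others it overlapped (17.3 to 24.05 and 19.1 to 25.015 CPM). Their part in the results below was not tested beyond a fit with their level as a covariate. Fish oil/pectin library 7 stood apart in several of the genes below, and edgeR values without it are given for each member that could be fitted. In bulk RNA, fewer cells of a type and less RNA per cell cannot be told apart.

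With fish oil/pectin, Ciart, Tef, Bhlhe40 and Rora were lower, and no member was higher. Of the 9 genes 7 passed the filter on low counts, and 4 of these passed the threshold of adjusted p 0.05 in edgeR (quasi-likelihood test, adjusted over 14321 genes). Over all genes tested 41.7% passed, 20.1% lower and 21.7% higher. Of the 7, Ciart had the fold change farthest from 0, with less than 1 CPM on average with fish oil/pectin. The median log2 fold change of the 7 was -0.57, against -0.0043 over all genes. Dbp and Nfil3 leaned in opposite directions without passing, and Wee1 hardly differed in mean. Hlf and Bhlhe41 were too low for the fit. Over all 16 libraries the diets overlapped in CPM for each of the 7 genes, whereas 3.35% of all genes tested did not overlap, 0.999% of all genes being lower with fish oil/pectin.

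**Figure D1:**
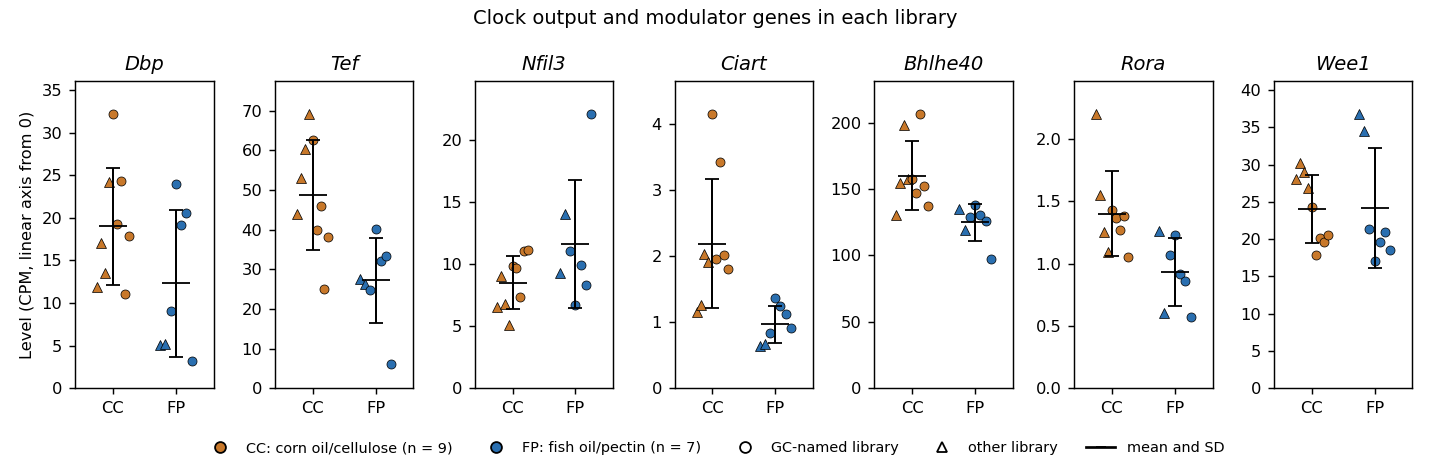
Level of 7 genes in CPM on linear axes from 0, 1 point per library, circles for GC-named and triangles for other libraries, with the mean and SD per diet (CC, corn oil/cellulose, n = 9; FP, fish oil/pectin, n = 7). Ciart lies between 0.633 and 1.36 CPM with fish oil/pectin and between 1.15 and 4.16 CPM with corn oil/cellulose, and 1 fish oil/pectin library stands low in Tef (6.14 CPM) and high in Nfil3 (22.1 CPM).

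Levels per length of exon set the genes far apart. With corn oil/cellulose, Bhlhe40 was highest at 34.1 ± 5.46 CPM per kilobase (SD, n = 9) and did not overlap with any other member. Wee1 (7.04 ± 1.35), Dbp (6.36 ± 2.29) and Tef (6.19 ± 1.77) could not be put in order, since Wee1 was above Dbp, and Dbp above Tef, in 5 of 9 libraries. Nfil3 followed at 4.19 ± 1.06, below Tef in 7 of 9. Ciart (0.970 ± 0.433) and Rora (0.107 ± 0.0259) were separate from their neighbours in every library, and Bhlhe41 (0.0244) and Hlf (0.00993) overlapped at the bottom. With fish oil/pectin the order changed in the middle, where Nfil3 (5.74 ± 2.54, n = 7) stood before Dbp (4.12 ± 2.89) and Tef (3.46 ± 1.35), but their ranges overlapped there too.

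Among the PAR bZIP factors, Tef (ENSMUSG00000022389.15, chromosome 15, 81802421 to 81826863, plus strand, GRCm38) was the member with the most counts. With corn oil/cellulose its lowest, median and highest libraries were at 24.99, 46.0 and 69.2 CPM, and with fish oil/pectin at 6.14, 27.6 and 40.2 CPM. Thus 6 of 9 corn oil/cellulose libraries lay above every fish oil/pectin library, and the groups overlapped. The mean was 48.7 ± 13.9 CPM (SD, n = 9) against 27.2 ± 10.6 CPM (SD, n = 7). In edgeR, adjusted for the name form, Tef was 1.72-fold lower (log2 fold change -0.78 ± 0.28 SE, adjusted p = 0.0372). An exact two-sided permutation test of the diets within name forms gave p = 0.00741. Over all genes tested 50.1% had an exact p under 0.05, against 5 of the 7 members, and in GC-named libraries alone 47.1%, against 3 of the 7, so these unadjusted values say little alone. The edgeR call was close to the threshold. Removal of corn oil/cellulose library 3, 4, 5, 6 or 7, or of fish oil/pectin library 1, 2 or 3, ended it (adjusted p 0.0502 to 0.0839) with the change still at -0.81 to -0.69, while without fish oil/pectin library 7 the change was -0.63 (adjusted p = 0.0163).

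Dbp (ENSMUSG00000059824.12, chromosome 7, 45705088 to 45710203, plus strand), the founding member of the family and a strongly rhythmic gene in many tissues, had its lowest, median and highest corn oil/cellulose libraries at 11.1, 17.8 and 32.2 CPM. With fish oil/pectin these were 3.16, 9.12 and 24.0 CPM. The fish oil/pectin libraries fell into a low set of 4, below every corn oil/cellulose library, and 3 within the corn oil/cellulose range. The low set was made up of both libraries without the GC prefix (5.06 and 5.24 CPM) and GC-named libraries 3 (9.12 CPM) and 7 (3.16 CPM). The change was -0.83 ± 0.37 and did not pass (edgeR adjusted p = 0.0820). By the exact permutation test Dbp had p = 0.0235. In edgeR the gene passed without corn oil/cellulose library 8 (-0.98, adjusted p = 0.0461) or fish oil/pectin library 4 (-1.02, adjusted p = 0.0386). It was nearer to 0 without fish oil/pectin library 7 (-0.66, adjusted p = 0.106), 1 (-0.70, adjusted p = 0.182) or 2 (-0.70, adjusted p = 0.184). Of its exons 539 bases overlap with Sphk2 on the other strand, and the sources used here do not give the strand setting of the counting. Sphk2 itself was at -0.12 (adjusted p = 0.109).

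Hlf, the third PAR bZIP gene, was close to absent. It had 0 to 3 counts per library, 10 in all with corn oil/cellulose and 9 with fish oil/pectin. The ratio of these rates was 1.09, with an exact 95% interval of 0.390 to 2.97 for counting error only. A difference within that interval was not detectable at this depth.

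Nfil3 (ENSMUSG00000056749.7, chromosome 13, 52967209 to 52981073, minus strand), the repressor at the same element, was at 5.06, 9.03 and 11.1 CPM in its lowest, median and highest corn oil/cellulose libraries. The fish oil/pectin values were 6.73, 9.92 and 22.1 CPM. Only fish oil/pectin libraries 7 (22.1 CPM) and 2 (14.01 CPM) exceeded the corn oil/cellulose range. The change of 0.43 ± 0.21 did not pass (edgeR adjusted p = 0.112; exact permutation p = 0.166). Without fish oil/pectin library 7 it was 0.22 (adjusted p = 0.333), and without library 4 it passed at 0.53 (adjusted p = 0.0385).

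The balance of the activators and Nfil3 was described by the summed CPM of Dbp, Tef and Hlf over that of Nfil3. This ratio was 3.28 to 18.4 with corn oil/cellulose and 0.429 to 9.55 with fish oil/pectin. The lowest value was that of fish oil/pectin library 7, the only library with more Nfil3 than PAR bZIP CPM. In libraries without the GC prefix the diets did not overlap, with 7.78 to 18.4 in 4 corn oil/cellulose libraries and 2.25 and 3.53 in 2 fish oil/pectin libraries. In GC-named libraries they overlapped widely, at 3.28 to 9.61 and 0.429 to 9.55. The ratio was given no test, as it is a score over the members.

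**Figure D2:**
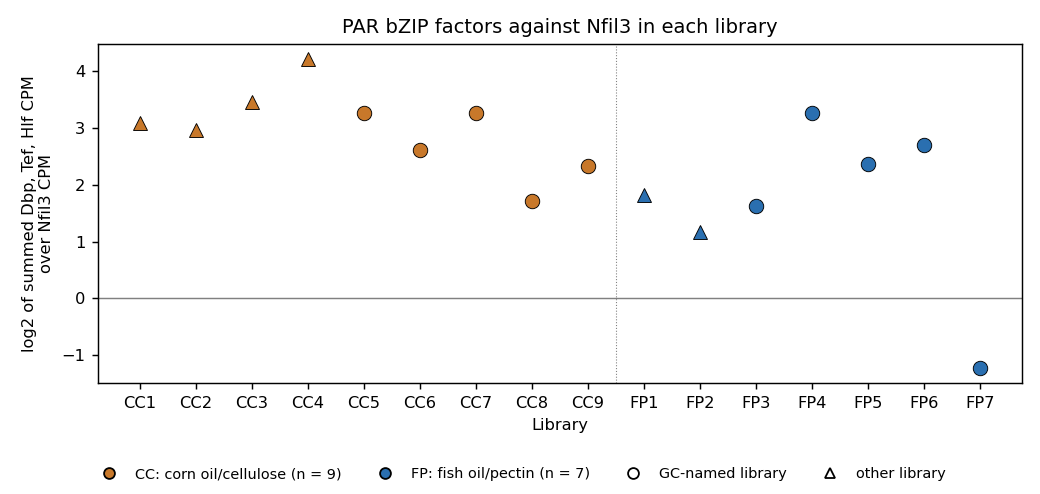
Log2 of the summed CPM of Dbp, Tef and Hlf over the CPM of Nfil3 in each of 16 libraries (CC, corn oil/cellulose; FP, fish oil/pectin), circles for GC-named and triangles for other libraries. Values run from 1.71 to 4.21 with corn oil/cellulose and from -1.22 to 3.26 with fish oil/pectin, where library 7 is the lowest point.

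Ciart (ENSMUSG00000038550.10, chromosome 3, 95878503 to 95882251, minus strand), a repressor that binds ARNTL and whose gene carries the 3 E-boxes shown above, had the most stable difference. Its lowest, median and highest libraries were at 1.15, 1.96 and 4.16 CPM with corn oil/cellulose and at 0.633, 0.918 and 1.36 CPM with fish oil/pectin. Over all libraries the ranges overlapped, with 7 of 9 corn oil/cellulose libraries above every fish oil/pectin library. Within each name form they did not: GC-named libraries held 1.80 to 4.16 and 0.834 to 1.36 CPM, and the others 1.15 to 2.03 and 0.633 to 0.662 CPM. Such a separation, lower with fish oil/pectin within both forms, was seen in 3.83% of all genes tested and in no other of the 7 members. The means were 2.19 ± 0.979 CPM (SD, n = 9) and 0.967 ± 0.282 CPM (SD, n = 7). In edgeR Ciart was 2.43-fold lower (-1.28 ± 0.22, adjusted p = 0.000591). The exact permutation p was 0.000265, the smallest that the assignments within name forms can give. The call held with any library left out (-1.36 to -1.14), and without fish oil/pectin library 7 the change was -1.24 (adjusted p = 0.000783). Counts were low, at 11 to 67 per library.

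Bhlhe40 (ENSMUSG00000030103.11, chromosome 6, 108660629 to 108666925, plus strand), a basic helix-loop-helix repressor that also answers to hypoxia, cytokines and feeding, was the most abundant member. It was at 131, 154 and 207 CPM in the lowest, median and highest corn oil/cellulose libraries and at 97.1, 129 and 138 CPM in those of fish oil/pectin. All but 2 corn oil/cellulose libraries lay above every fish oil/pectin library. The change was small and even, at 1.28-fold lower (-0.36 ± 0.10, edgeR adjusted p = 0.00747; exact permutation p = 0.00291). It held with any library left out, from -0.39 to -0.29. Fish oil/pectin library 7 was the lowest at 97.1 CPM, and without it the change was -0.31 (adjusted p = 0.0127). Of 12 hypoxia targets tested, 2 were higher (Pgk1, of glycolysis, at 0.45 and Ldha, lactate dehydrogenase, at 0.33) and 1 lower (Kdm3a, a histone demethylase, at -0.41). Thus 25% of these targets passed, against 41.7% of all genes.

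Bhlhe41 (ENSMUSG00000030256.11, chromosome 6, 145858243 to 145865558, minus strand), the close relative of Bhlhe40, was near the limit of detection. With corn oil/cellulose it had 1 to 7 counts per library, 25 in all, and the 7 fish oil/pectin libraries held 0, 0, 2, 0, 1, 1 and 0, which is 4 in all. Every corn oil/cellulose library had a read and 4 of the fish oil/pectin libraries had none. The ratio of rates, fish oil/pectin over corn oil/cellulose, was 0.193 (exact 95% interval 0.0488 to 0.559, counting error only), and the exact permutation p was 0.00238. Without a filter on low counts, edgeR gave adjusted p = 0.0188 for this gene over 28219 genes, of which 5198 passed. In that fit Tef (edgeR adjusted p = 0.102) and Rora (adjusted p = 0.0702) no longer passed, while Ciart and Bhlhe40 did. The exons of Bhlhe41 share 1280 bases with Gm43909 on the other strand, so the source of these few reads is uncertain.

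Rora (ENSMUSG00000032238.17, chromosome 9, 68653786 to 69388246, plus strand), the receptor that activates Arntl, was at 1.06, 1.36 and 2.201 CPM in the lowest, median and highest corn oil/cellulose libraries. With fish oil/pectin it was at 0.574, 0.916 and 1.27 CPM, and 4 of 7 libraries lay below the corn oil/cellulose range. The counts were 10 to 44 per library. Rora was 1.48-fold lower (-0.57 ± 0.21, edgeR adjusted p = 0.0340; exact permutation p = 0.00741). Removal of corn oil/cellulose library 1, 5 or 6, or of fish oil/pectin library 2, 6 or 7, ended the call (adjusted p 0.0524 to 0.1002), with the change at -0.57 to -0.43. Without library 7 of fish oil/pectin it was -0.49 (adjusted p = 0.0657). Rora is also expressed in innate lymphoid and T cells. The sum of T and NK markers was lower with fish oil/pectin in GC-named libraries but overlapped in the others. Rora was at -0.49 in GC-named libraries and at -0.72 in the others, which held only 2 fish oil/pectin libraries. The difference between forms did not pass for Rora (edgeR adjusted p = 0.792). With the T and NK marker level as a covariate its change was -0.65 (adjusted p = 0.107), and with the trend on exon length removed it was -0.32 (adjusted p = 0.241). Of 10 innate lymphoid markers 4 could be tested and 1 was lower, where 20.1% of all genes tested were lower. The 10 summed to 82.5 to 136 CPM with corn oil/cellulose and 69.9 to 101 CPM with fish oil/pectin. Whether this level comes from innate lymphoid cells was not tested.

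Wee1 (ENSMUSG00000031016.9, chromosome 7, 110122046 to 110143286, plus strand) did not pass, with means of 24.1 ± 4.62 CPM (SD, n = 9) and 24.1 ± 8.04 CPM (SD, n = 7) and a change of 0.07 ± 0.08 (edgeR adjusted p = 0.485). Without fish oil/pectin library 7 it was 0.10 (adjusted p = 0.371). Within each diet its libraries separated by name form. The diets overlapped in GC-named libraries and did not overlap in the others, of which 2 were fish oil/pectin libraries. With corn oil/cellulose the GC-named libraries held 17.9 to 24.3 CPM and the others 26.8 to 30.2 CPM, and with fish oil/pectin 17.0 to 21.4 and 34.5 to 36.8 CPM. The share of all genes that separate by name form, or by diet without the GC prefix, was not computed. These separations are therefore not shown to be particular to Wee1. The diet effect was -0.07 ± 0.09 with the GC prefix and 0.32 ± 0.11 without it, and the difference did not pass (-0.39, adjusted p = 0.0935). Of 11 genes of mitotic entry around WEE1, 8 were higher and 0 lower, which is 72.7% passing, against 41.7% of all genes. Among them were Cdk1, the target of WEE1, at 0.79, Ccnb2, a cyclin, at 0.59 and Plk1, a mitotic kinase, at 0.64.

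**Figure D3:**
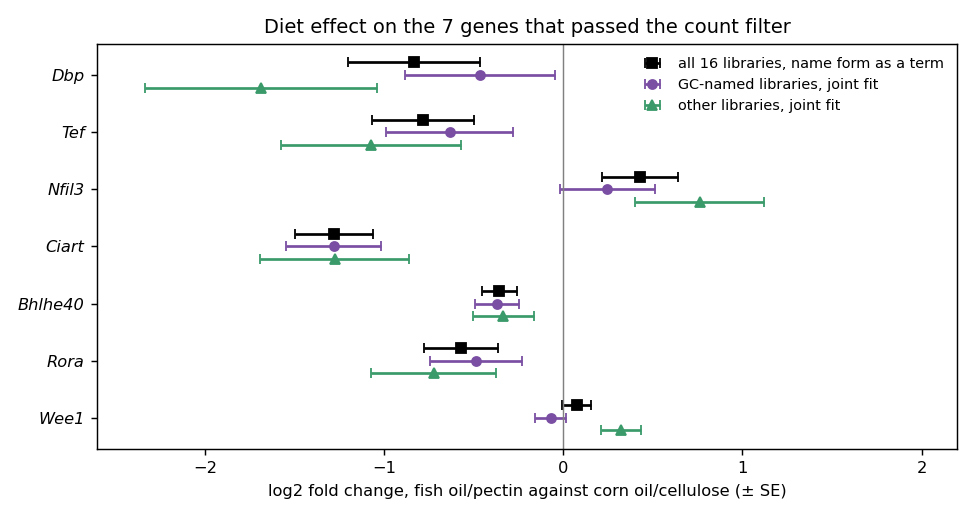
Log2 fold change of fish oil/pectin against corn oil/cellulose with its SE for 7 genes, over all 16 libraries with the name form as a term (squares) and within GC-named (circles) and other libraries (triangles) in a joint fit. Ciart is at -1.28, -1.28 and -1.27 in these, whereas Wee1 is at 0.07, -0.07 and 0.32.

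The diet effect was compared between name forms in a joint edgeR fit. In GC-named and other libraries, Ciart was at -1.28 and -1.27 and Bhlhe40 at -0.37 and -0.33. Dbp (-0.46 and -1.69), Tef (-0.63 and -1.07), Rora (-0.49 and -0.72) and Nfil3 (0.25 and 0.76) were further from 0 in the libraries without the GC prefix. In edgeR the difference between forms passed for 0 of the 7 genes, against 8.41% of all genes, and Wee1 was the 1 gene of the 7 with an unadjusted p under 0.05. In GC-named libraries Ciart and Bhlhe40 passed in this fit, against 45% of all genes. In the others 0% of genes passed, where 2385 genes had an unadjusted p under 0.05, so a member that missed there says little.

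Library to library, the members moved in 2 directions. After the mean of each diet and name form was taken away, 21 pairs of 7 genes were compared over 16 libraries by log2 CPM, with permutation within these sets and adjustment over the 21 pairs. Dbp and Tef rose and fell together (Pearson r = 0.96, permutation p = 5e-05, adjusted p = 0.00105; Spearman rho = 0.87, p = 0.0006, adjusted p = 0.0126), with r = 0.90 without fish oil/pectin libraries 7 and 4, the farthest in Dbp. Nfil3 ran against Tef (r = -0.82, permutation p = 0.00468, adjusted p = 0.0372; rho = -0.71, p = 0.00348, adjusted p = 0.0243). Without the 2 libraries farthest in Tef (fish oil/pectin 7, corn oil/cellulose 8) this was r = -0.61. Nfil3 also ran against Dbp (r = -0.80, permutation p = 0.00531, adjusted p = 0.0372; rho = -0.60, p = 0.0275, adjusted p = 0.0722), with r = -0.48 without the 2 libraries farthest in Dbp.

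Ciart moved with Tef (r = 0.54, permutation p = 0.00778, adjusted p = 0.0408; rho = 0.75, p = 0.00287, adjusted p = 0.0243; r = 0.72 without 2 libraries) and with Dbp (r = 0.58, permutation p = 0.00984, adjusted p = 0.0413; rho = 0.64, p = 0.0104, adjusted p = 0.0365; r = 0.66). Bhlhe40 moved with Ciart (r = 0.65, permutation p = 0.0165, adjusted p = 0.0496; rho = 0.70, p = 0.00462, adjusted p = 0.0243; r = 0.75) and against Nfil3 (r = -0.64, permutation p = 0.0147, adjusted p = 0.0496; rho = -0.61, p = 0.0257, adjusted p = 0.0722; r = -0.45). In all, 7 of 21 pairs passed by r, and Tef with Bhlhe40 passed by rho alone (rho = 0.73, permutation p = 0.00625, adjusted p = 0.0263; r = 0.61, p = 0.0254, adjusted p = 0.0666). Without fish oil/pectin library 7, 2 pairs passed, Dbp with Tef (r = 0.91, permutation adjusted p = 0.00231) and Tef with Ciart (r = 0.81, adjusted p = 0.0206), while Dbp with Ciart (r = 0.72, adjusted p = 0.0721) and Ciart with Bhlhe40 (r = 0.66, adjusted p = 0.130) missed the threshold with r no smaller than before. The 3 pairs with Nfil3 were weaker without it, at r = -0.51 with Tef (adjusted p = 0.183), -0.52 with Dbp (adjusted p = 0.183) and -0.44 with Bhlhe40 (adjusted p = 0.343). With diet means alone taken away, in all 16 libraries, Dbp with Tef, Dbp with Ciart and Nfil3 with Tef passed. Tef with Ciart was then at r = 0.19 (permutation adjusted p = 0.665) and did not pass. Rora and Wee1 were in no pair that passed. The share of all gene pairs that reach such r was not computed. These pairs are therefore not shown to move together more than other genes do.

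**Figure D4:**
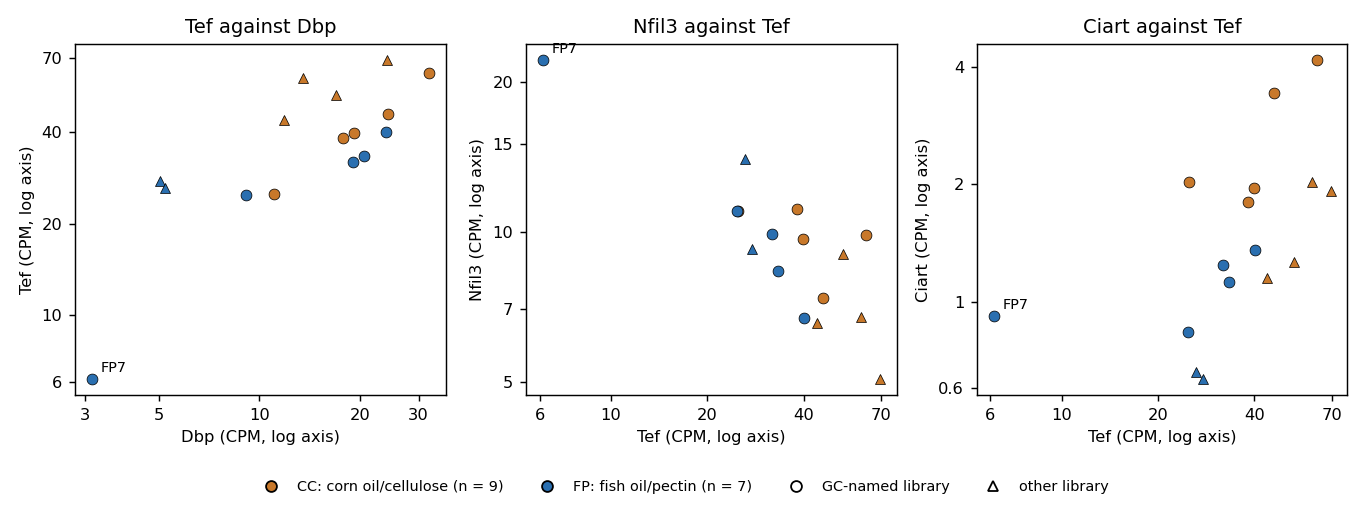
Tef against Dbp, Nfil3 against Tef and Ciart against Tef in 16 libraries, CPM on log axes, circles for GC-named and triangles for other libraries, not corrected for diet or name form. Fish oil/pectin library 7 (FP7) is lowest in Dbp (3.16 CPM) and Tef (6.14 CPM) and highest in Nfil3 (22.1 CPM).

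Over all genes of at least 1 log2 CPM, those most like the members between libraries of the same diet and name form were sought by r over the 16 libraries. These are the highest of 11191 or 11192 values each and describe likeness only. For Dbp they were Tef, Nr1d2 (r = 0.92), the gene of the REV-ERB beta repressor, and Cers4 (r = 0.92), a ceramide synthase gene. For Tef they were Dbp, Nr1d2 (r = 0.95) and Cyp2c68 (r = 0.92), a cytochrome P450 gene. The nearest to Nfil3 was Dnttip2 (r = 0.93), to Bhlhe40 Bcl10 (r = 0.93), of NF-kappaB signalling, to Rora Krt23 (r = 0.90), a keratin gene, and to Wee1 Marcks (r = 0.84).

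Other clock genes lay lower in part. Of 12 core loop genes 11 were tested, 6 were lower and 1, Cry1, was higher, with a median of -0.26; 63.6% passed, against 41.7% of all genes. Per3 was at -1.17, Nr1d2 at -0.76 and Per2, a repressor of the loop, at -0.58. Per2 was at -0.90 in GC-named and -0.05 in other libraries, and that difference did not pass (edgeR adjusted p = 0.0952). Arntl, the activator, did not pass (0.10, adjusted p = 0.294). Nr1d1, looked up after its values were seen, was at 37.5 CPM in fish oil/pectin library 7, against 70.8 to 144 CPM in the other GC-named libraries of that diet. With the non-epithelial marker level as a covariate 1 core loop gene was lower in place of 6, without a term for the name form 3, and without fish oil/pectin libraries 6 and 7 together 3. Over all genes 301, 4951 and 4327 passed in these settings, in place of 5979, so calls were lost among all genes too.

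Of 18 further genes of clock output 16 were tested, with 6 lower and 1, Alas1, of heme synthesis, higher (median -0.11), which is 43.8% passing and near the 41.7% of all genes. Abcb1a, an efflux pump gene whose rhythm in the intestine has been tied to HLF and NFIL3, was at -1.22 (591 and 252 CPM on average), Ppargc1a, a coactivator of mitochondrial genes, at -0.76 and Klf9, a glucocorticoid-induced factor, at -0.58. Of 14 genes of clock protein modification and turnover 13 were tested, with 6 lower and 0 higher (median -0.13), or 46.2%, again near all genes. Sirt1, a deacetylase, was at -0.43, Usp9x, a deubiquitinase, at -0.61 and Gsk3b, a kinase, at -0.25. For Gsk3b the forms differed, at -0.36 in GC-named and -0.04 in other libraries (edgeR adjusted p = 0.0389), and Usp9x was at -0.88 and -0.15 (adjusted p = 0.0619). Among 6 other bZIP genes of the C/EBP and ATF type 1 was higher, Atf5 at 0.34, which is 16.7% passing, against 41.7% of all genes. Of 8 genes of HES, HEY and ID proteins 5 were tested and 3 were higher (60% passing), Id1 at 0.37, Id3 at 0.31 and Hes6 at 0.29. The diet effect differed between forms for Hes6, at 0.50 in GC-named and -0.12 in other libraries (edgeR adjusted p of the difference = 0.0483). For Id3, at 0.53 and -0.12, the difference did not pass (edgeR adjusted p = 0.0630). Of 4 lipid genes linked to NFIL3 in the gut epithelium only Scd1, the delta-9 desaturase, was expressed enough to test, and it was higher at 0.42.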

How the data were processed

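Values are raw read counts per gene symbol as deposited by the authors, 1 column per library, with 0 per-sample columns left unused. STAR 2.6.0a, HTSeq 0.11.1 and GRCm38 were used per the submitters' processing notes; per the labels' protocols 200 ng of RNA entered a stranded poly(A) preparation. The sources used here do not give the strand setting or annotation release. Symbols were matched to GENCODE M21 (GRCm38; 98.8%).

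All genes were fitted with edgeR 4.0.16 (R 4.3.3): robust quasi-likelihood test, TMM scaling, filterByExpr (14321 genes, 99.9% of counts), diet and name form as terms, Benjamini-Hochberg adjustment over all genes, threshold 0.05. Fold changes are relative to corn oil/cellulose. SE was taken as |log2 fold change| divided by sqrt(F). CPM are TMM-scaled; log2 CPM carry a prior count of 2. The fit was also run on simulated counts with the same spread for every gene and no effect of the name form. That run does not measure how often calls in these data are wrong. No 2 libraries of a diet agreed within sampling noise (chi-square per degree of freedom 8.20 to 141).

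Exact permutation reassigned diets within name forms (two-sided). Correlations used 100000 draws. Named genes: all 9 members, the 3 genes most like each (those most alike are given; some are not reported here) and up to 3 per list by p, with Arntl, Cry1, Nr1d1, Alas1 and Sphk2 added after their values were seen. Members and lists were chosen with earlier results of these data known. Alternatives were DESeq2 1.42.0, limma 3.58.1 (voom), other scalings, filters, covariates, library subsets and thresholds.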

Additional observations from a re-analysis of the deposited data

Results flagged for a closer look

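In 14 sets of libraries (7 genes in 2 diets) the extreme library was compared with the spread of its set; chance flags about 1 set in 20. Fish oil/pectin library 7 stood far below the other 6 of its diet in Tef, at 2.65 log2 CPM against 4.64 for the next. The same library was the lowest in Bhlhe40, at 6.60 log2 CPM against 6.90 for the next.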

How the results depend on the processing

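The count of members past the threshold was 4 and lay between 2 and 6 with single libraries left out; removal of corn oil/cellulose library 5 or 6, or of fish oil/pectin library 2, left 2, and 6 passed without fish oil/pectin library 4. Ciart passed under 32 of 33 alternatives, Bhlhe40 under 30, Tef under 19, Rora under 18, Dbp under 5, Nfil3 under 2 and Wee1 under 1. All 7 kept their sign throughout except Wee1, in 31 of 33. The count was 2 in GC-named libraries alone, 1 in libraries whose number starts with 7, 2 with a non-epithelial marker covariate, 2 with the trend on exon length removed and 2 at adjusted p under 0.01. In libraries without the GC prefix alone Ciart (-1.26, edgeR adjusted p = 0.0673), Bhlhe40 and Rora were lost. Tef still passed there (-1.06, adjusted p = 0.0252), and Dbp (-1.67, adjusted p = 0.0265) and Wee1 (0.33, adjusted p = 0.0486) were gained. With the T and NK marker covariate, added after the data were seen, Dbp (-1.88, adjusted p = 0.0125) and Nfil3 (0.97, adjusted p = 0.0122) passed. Over all genes 5979 passed, 5078 to 6065 with single libraries left out. With other settings 900 passed without the GC prefix, 2250 in those starting with 7, 301 with the non-epithelial and 2922 with the T and NK covariate, and 3589 at 0.01. Scaled by total counts, 2247 were higher and 3779 lower, in place of 3103 and 2876, and 4 members passed. The difference between name forms passed for 0 members with any library left out, and for 1, Wee1, with total count scaling or at adjusted p under 0.1. By exact permutation 6 of the 9 members had p under 0.05, also without fish oil/pectin library 7, and 4 in GC-named libraries alone. Each of these counts includes Bhlhe41, which did not pass the filter on low counts. The shares of all genes tested, which cover only genes that passed the filter, were 50.1% and, in GC-named libraries alone, 47.1%. Correlated pairs numbered 3 with diet means alone taken away, and 2 without fish oil/pectin library 7, in place of 7, although 3 of the 7 pairs had an r no smaller without library 7. The causes of these changes were not tested.

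Diets share replicate numbers 1 to 7, but same-numbered libraries did not deviate together in every pair (r from -0.068 to 0.475; 1 of 7 was closest to its own number). With a replicate block 3454 genes and 4 members passed: Dbp (-1.24, adjusted p = 0.0387) was gained and Bhlhe40 (-0.39, adjusted p = 0.0751) lost. Depth limits Hlf and Bhlhe41, and to a lesser degree Ciart and Rora.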
